A study of Mus musculus with 16 samples.

Results

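The 8 genes described here, Pglyrp1, Pglyrp2, Lbp, Ssc5d, Nod1, Nod2, Cd14 and Ripk2, encode proteins that recognize bacterial cell wall material or relay that recognition, and they were taken by exact symbol from the 24421 genes listed in each expression table of a bulk RNA-seq study of the mouse somatosensory cortex. Peptidoglycan (PG) is the mesh of sugars and peptides that forms the bacterial cell wall, and lipopolysaccharide (LPS) is the major lipid of the Gram-negative outer membrane. PG fragments are bound outside cells by the peptidoglycan recognition proteins and inside cells by the NOD receptors, which pass the signal to the kinase RIPK2, whereas LPS is handed from LBP to CD14 and on to Toll-like receptor 4. These proteins are best known from blood, liver and myeloid cells, and PG fragments have long been studied as sleep-promoting substances in the brain.

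Libraries came from mice labelled as male C57BL/6 (WT; C57/BL6J in the study's methods) and from mice labelled as male and lacking AcPb (AcPb-/-), aged 2 to 3 months. AcPb is the neuron-specific form of the interleukin-1 receptor accessory protein, a splice form of the gene Il1rap. Each genotype contributed an undisturbed control group (CTL) and a group subjected to sleep disruption (SD) by gentle handling for 8 h, from zeitgeber time (ZT) 20 to ZT 4, when all tissue was collected. Each of the 4 groups had 3 libraries, and another 4 labelled samples were not analysed here. The labels do not say that each library is a different mouse, so p-values measure the spread between these libraries, which could be partly technical.

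Several properties of the libraries bear on every value below. Reads on genes ranged from 26504840 to 41615582 in the undisturbed libraries and from 58770286 to 71857505 in the SD libraries, so depth differed with condition. Although all mice were labelled male, 2 of 3 undisturbed libraries of each genotype (CTL-WT 02 and 03, CTL-AcPbKO 04 and 05) held 25352 to 39358 reads of Xist, the RNA of the inactive X chromosome, and at most 2 reads in all of Uty, Kdm5d, Eif2s3y and Ddx3y, which lie on the Y chromosome. The other 8 libraries, all SD libraries among them, held 5 to 13 Xist reads and 5105 to 10593 Y-linked reads. Xist status is therefore partly confounded with SD, to the same extent in both genotypes. SD effects are given with and without a term for the 4 libraries with Xist reads. Only 1 undisturbed library per genotype, CTL-WT 01 and CTL-AcPbKO 03, was not among them. SD effects with the term, or from libraries without Xist reads, therefore lean on these controls. Library SD-AcPbKO 04 stood apart by its choroid plexus and ependyma markers (summed normalized count 18343, against 512 to 925 in the other 11 libraries) and its neutrophil markers (1043, against 28.2 to 175). All 6 cortical neuron markers were detected in every group, with sums of 75228 to 102108. The 8 striatal neuron markers were detected in every group too. Their sums were 12426 to 25878, with the lowest and the highest both in CTL-WT. Il1rap itself had 1497 ± 21.9 normalized counts (SD, n = 3) in CTL-WT and 1583 ± 66.1 in CTL-AcPbKO. A gene-level count does not separate splice forms, so this value checks little of the genotype.

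Only 4 of the 8 genes had promoter windows in RefSeq (GRCm38.p6, 250 bases before to 50 bases after a start site), namely Pglyrp1, Pglyrp2, Nod1 with 2 windows, and Nod2. The windows of both peptidoglycan recognition protein genes are shown, since Pglyrp1 was upregulated after SD in both genotypes and Pglyrp2 RNA was hardly detected. They are written 5′ to 3′ on the strand of the gene, at chr7:18884440-18884739 (plus strand) for Pglyrp1 and chr17:32420926-32421225 (minus strand) for Pglyrp2, with motif matches in capitals.
Pglyrp1: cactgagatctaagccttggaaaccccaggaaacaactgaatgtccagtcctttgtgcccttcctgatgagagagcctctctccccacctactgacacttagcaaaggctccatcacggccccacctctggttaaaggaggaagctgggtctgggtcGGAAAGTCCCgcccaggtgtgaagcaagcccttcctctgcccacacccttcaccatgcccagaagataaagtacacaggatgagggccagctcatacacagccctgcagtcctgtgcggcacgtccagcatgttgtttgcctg
Pglyrp2: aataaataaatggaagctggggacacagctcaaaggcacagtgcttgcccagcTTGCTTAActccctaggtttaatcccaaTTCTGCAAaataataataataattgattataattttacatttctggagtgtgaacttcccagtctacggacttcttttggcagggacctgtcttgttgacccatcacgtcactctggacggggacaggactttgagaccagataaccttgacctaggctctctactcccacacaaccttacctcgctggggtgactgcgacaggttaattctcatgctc

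The capitals in the Pglyrp1 window mark a match to the kappa-B motif, the DNA element bound by NF-kappa-B, 93 bases before the start site. Such a match was present in 4.51% of the 32851 RefSeq promoter windows of the same length. The capitals in the Pglyrp2 window mark 2 matches to the C/EBP motif (TTNNGNAA), 197 and 169 bases before the start site, a motif held by 40.7% of all windows. The second Nod1 window held a STAT motif (TTCNNNGAA, 8.30% of windows) 193 bases before its start site and a C/EBP motif 5 bases after it. Neither the first Nod1 window nor the Nod2 window held any motif searched. Both strands were searched, and no matches overlapped. The other motifs searched, none of which occurred in these windows, were the glucocorticoid response element (0.475% of windows), the E-box (CACGTG, 7.15%), the D-box (TTATGTAA or TTACGTAA, 1.06%), AP-1 (TGANTCA, 7.81%), the cAMP response element (TGACGTCA, 1.79%) and the interferon-stimulated motif (3.44%). A match describes the letters in the window and does not show that a factor was bound there.

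Of the 8 genes, 7 were measurable in the cortex and 1 was close to absent. On the scale of normalized counts per kilobase of exon, Pglyrp1 had the highest mean level over the 12 libraries at 122.6 ± 36.8 (SD), followed by the kinase gene Ripk2 at 112.7 ± 13.1, and the ranges of these 2 genes overlapped. The order depended on condition, since Ripk2 was the higher of the pair in undisturbed mice (110.7 against 98.5 in CTL-WT and 98.2 against 82.0 in CTL-AcPbKO, group means per kilobase) and Pglyrp1 after SD (167 against 124 in SD-WT and 143 against 118 in SD-AcPbKO). Ssc5d, a secreted scavenger receptor with cysteine-rich domains that binds bacteria, stood at 53.7 ± 14.7, and Nod1, the cytosolic receptor for PG of mainly Gram-negative bacteria, at 53.1 ± 6.00. Per kilobase, the group mean of Ssc5d was below that of Nod1 in undisturbed mice (41.6 against 57.0 in CTL-WT and 39.7 against 52.7 in CTL-AcPbKO) and above it after SD (64.8 against 53.6 in SD-WT and 68.7 against 49.2 in SD-AcPbKO). Cd14, the LPS co-receptor of myeloid cells, followed at 40.6 ± 6.88 per kilobase, with libraries from 27.6 to 49.95, overlapping both Nod1 (42.5 to 61.4) and Lbp (13.1 to 29.7). Nod2, the cytosolic muramyl dipeptide receptor, was lower than Lbp in every library, at 4.90 to 9.59 per kilobase. Pglyrp2, an amidase that cleaves PG and is secreted mainly by the liver, had 26 reads in all 12 libraries together and 0 to 6 reads per library. No fold change is given for it, since both groups of each comparison were near the limit of detection.

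**Figure D1:**
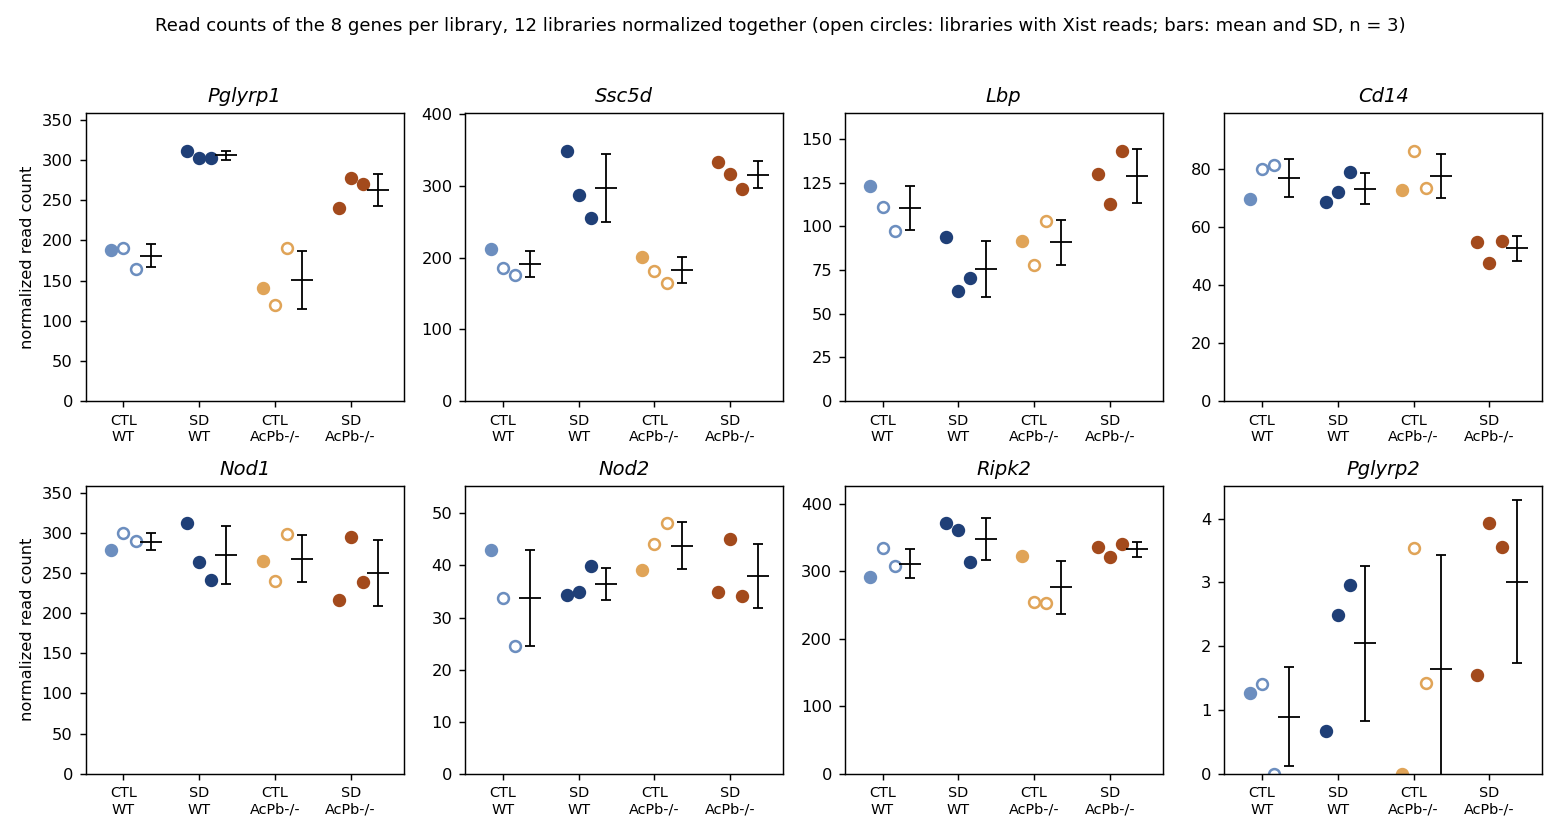
Read counts per library of the 8 genes (vertical axes, normalized over the 12 libraries together, each starting at 0) in the 4 groups (horizontal axes), with mean and SD (n = 3) beside the points and open circles for the 4 undisturbed libraries with Xist reads. Pglyrp1 and Ssc5d lie higher after SD in both genotypes with no overlap, whereas the SD libraries of Lbp lie at 63.1 to 93.7 below the WT controls and at 113 to 143 above the AcPb-/- controls.

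Pglyrp1 was upregulated after SD in both genotypes. PGLYRP1 is a secreted PG-binding protein stored in neutrophil granules and also made in the brain. The gene lies on chromosome 7 of GRCm38 (plus strand, from position 18871331 up to 18890459), and the RefSeq start site used above lies inside that interval. Normalized counts were 189, 190.1 and 164 in the CTL-WT libraries and 312, 303 and 303 in the SD-WT libraries. In AcPb-/- mice the values were 141, 120.1 and 191 in controls and 241, 278 and 271 after SD. Every SD library was higher than every undisturbed library of either genotype.
The log2 fold change after SD was 0.76 in WT mice (SE 0.11, 95% interval 0.51 to 1.002, limma adjusted p = 0.00141), which corresponds to a 1.69-fold increase. In AcPb-/- mice it was 0.83 (SE 0.18, 95% interval 0.43 to 1.23, limma adjusted p = 0.00992), a 1.78-fold increase. Over both genotypes it was 0.79, and with the Xist term it was 0.79 (limma adjusted p = 0.00205). In the 8 libraries without Xist reads alone, which include only 1 control per genotype, the value was 0.80.

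Because Pglyrp1 is a known neutrophil granule gene, the summed counts of 10 neutrophil markers are given beside it. They ranged from 28.2 to 41.8 in CTL-WT, from 49.0 to 150.3 in SD-WT, from 48.1 to 95.2 in CTL-AcPbKO and from 38.7 to 1043 in SD-AcPbKO. In WT mice every SD library thus had a higher marker sum than every undisturbed library, as for Pglyrp1 itself. Pglyrp1 in the library with 1043 was 271, between the other SD-AcPbKO libraries, and in SD-AcPbKO 02, whose marker sum of 38.7 was below that of all 3 AcPb-/- controls, it was 241, above all of them. Without library SD-AcPbKO 04 the log2 fold change in AcPb-/- mice was 0.81 (limma adjusted p = 0.0402). Summed endothelial markers were 14421 to 15343 in CTL-WT and 14903 to 18368 in SD-WT, and 13981 to 15878 and 14296 to 17104 in the AcPb-/- groups. The part of neutrophils or endothelium in the Pglyrp1 values was not tested. As these are bulk samples, more cells of a type and more RNA per cell cannot be told apart for any gene described here.

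Ssc5d was likewise upregulated after SD in both genotypes. It lies on the same chromosome (7, plus strand, 4925785 to 4944826). The CTL-WT libraries had 211, 186 and 175 normalized counts and the SD-WT libraries 349, 287 and 255. The corresponding values in AcPb-/- mice were 201, 182 and 164 in controls and 334, 317 and 296 after SD. No SD library overlapped with the undisturbed libraries in either genotype. The increase was 1.55-fold in WT mice (log2 0.63, SE 0.14, limma adjusted p = 0.00937) and 1.73-fold in AcPb-/- mice (log2 0.79, SE 0.12, limma adjusted p = 0.00245). In both genotypes the undisturbed library without Xist reads had the highest control value. The effect over both genotypes was 0.71 on the log2 scale and 0.56 with the Xist term (limma adjusted p = 0.00393). It was 0.56 in the libraries without Xist reads, again with only 1 control per genotype.

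Pglyrp1 and Ssc5d were the only genes of the 8 past the threshold of an adjusted p under 0.05 within a single genotype, i.e., 2 of 8 in WT mice, where 25.4% of the 20417 tested genes passed, and 2 of 8 in AcPb-/- mice, where 27.4% of 20574 passed. These shares are close to the background. Groups without overlap were seen for 3 of the 8 genes in WT mice (40.2% of all tested genes) and for 4 of 8 in AcPb-/- mice (42.4%). The median log2 fold change of the 7 measurable genes was 0.13 in WT and 0.28 in AcPb-/- mice, against -0.0039 and 0.014 over all tested genes. The number of genes called without each library in turn ranged from 2699 (without CTL-WT 02) to 6222 in WT mice and from 3393 (without SD-AcPbKO 02) to 5412 in AcPb-/- mice, and Pglyrp1 and Ssc5d were called in every one of these fits. With the reads of every library thinned to the smallest total, so that depth no longer differed with condition, the effects over both genotypes were 0.74 for Pglyrp1 and 0.77 for Ssc5d.

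**Figure D2:**
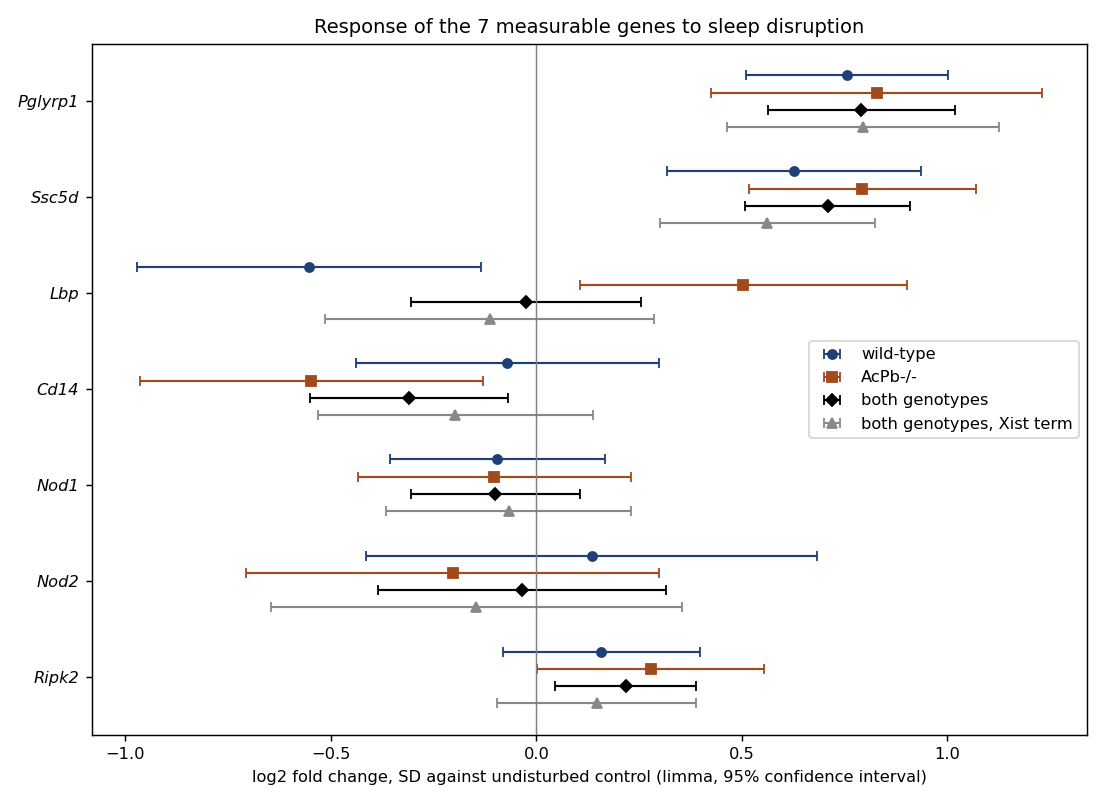
log2 fold change after SD (horizontal axis, with 95% confidence intervals from limma) for the 7 measurable genes (vertical axis) in WT mice, in AcPb-/- mice, over both genotypes, and over both genotypes with a term for libraries with Xist reads. All 4 estimates of Pglyrp1 and Ssc5d lie above 0, the WT and AcPb-/- estimates of Lbp lie on opposite sides of 0 at -0.55 and 0.50, and those of Nod1 and Nod2 span 0.

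Lbp lay lower after SD in WT mice and higher after SD in AcPb-/- mice, although neither difference passed the threshold over all genes. LBP is the acute phase protein of plasma that extracts LPS from bacteria and also binds PG, and its gene lies on chromosome 2 (plus strand, positions 158306493 to 158332852). In WT mice the normalized counts were 123, 111 and 97.2 in undisturbed libraries and 93.7, 63.1 and 70.4 after SD. In AcPb-/- mice they were 91.3, 77.7 and 103 in undisturbed libraries and 130.1, 113 and 143 after SD. The value of 143 came from SD-AcPbKO 04, the library that stood apart by its choroid plexus and neutrophil markers. Leaving out 1 library at a time gave log2 fold changes of 0.40 to 0.60 in AcPb-/- mice (limma adjusted p = 0.0563 to 0.196). All SD-WT libraries were lower than all CTL-WT libraries, and all SD-AcPbKO libraries were higher than all CTL-AcPbKO libraries. These counts rest on 44 to 202 reads per library.

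The log2 fold change after SD was -0.55 in WT mice (SE 0.19, 95% interval -0.97 to -0.13, limma adjusted p = 0.0550) and 0.50 in AcPb-/- mice (SE 0.17, 95% interval 0.11 to 0.90, limma adjusted p = 0.0630). The WT difference was past the threshold with edgeR (adjusted p = 0.0453), with genes restricted to a mean of at least 10 normalized counts (limma adjusted p = 0.0378), in the joint fit of 12 libraries (limma adjusted p = 0.0435) and without SD-WT 01 (-0.71, limma adjusted p = 0.0398). The AcPb-/- difference was past it only among genes with a mean of at least 10 (limma adjusted p = 0.0403). With the Xist term the WT value was -0.64 (limma adjusted p = 0.0655). The AcPb-/- value was then 0.41, and its 95% interval of -0.08 to 0.90 included 0 (limma adjusted p = 0.210). Over all 14 alternatives the limma, edgeR or DESeq2 adjusted p reached 0.190 in WT and 0.305 in AcPb-/- mice. Averaged over both genotypes, the responses cancelled to -0.03 (95% interval -0.31 to 0.25, limma adjusted p = 0.892).

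The difference between the 2 responses of Lbp, i.e., the genotype by SD interaction, was 1.05 on the log2 scale (SE 0.26, 95% interval 0.49 to 1.61), or a 2.08-fold difference between the fold changes. The limma adjusted p over 20978 genes was 0.986. No gene passed the adjusted threshold for this interaction with limma (0% of tested genes) or edgeR, and 1 did with DESeq2. At an unadjusted limma p under 0.05 there were 839 genes, or 4.00% of those tested. Lbp was singled out for this comparison with earlier results of these data known, so the interval above describes a gene chosen for its pattern. The Xist term left the estimate at 1.05, since each genotype had 2 libraries with Xist reads among its controls. Without library SD-AcPbKO 04 it was 0.97.

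**Figure D3:**
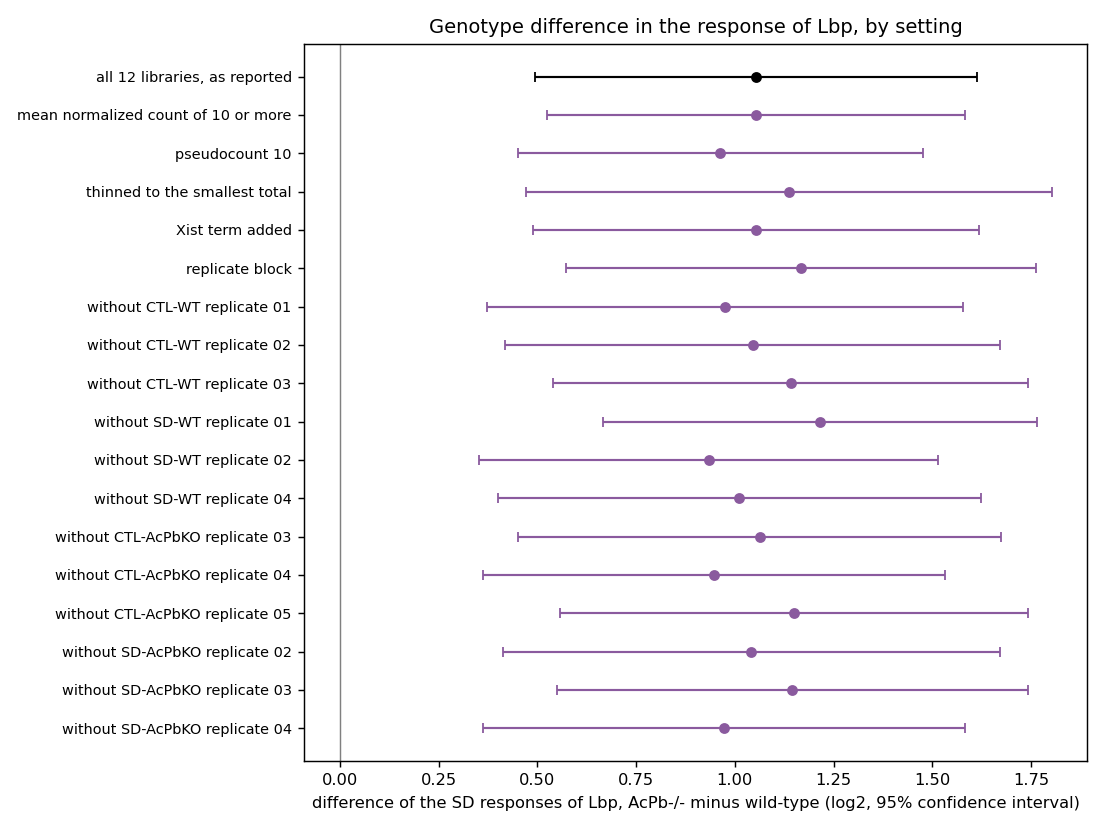
Difference between the SD responses of Lbp, AcPb-/- minus WT (horizontal axis, log2, with 95% confidence intervals from limma), with all 12 libraries and under each alternative that gives an interval, leaving out 1 library at a time among them (vertical axis). The estimates lie between 0.93 and 1.22, and every interval lies above 0, for a gene singled out with earlier results of these data known. The adjusted threshold was not passed in any setting (limma adjusted p = 0.986 with all 12 libraries).

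The Lbp groups of the 2 genotypes overlapped in undisturbed mice and did not overlap after SD. In undisturbed mice Lbp was 110.4 ± 12.8 in WT and 90.8 ± 12.8 in AcPb-/- libraries (SD, n = 3), a log2 difference, AcPb-/- minus WT, of -0.28 (95% interval -0.69 to 0.12, limma adjusted p = 0.683). After SD it was 75.7 ± 15.99 in WT and 129 ± 15.4 in AcPb-/- libraries, a log2 difference of 0.77 (95% interval 0.36 to 1.19, limma adjusted p = 0.391). None of the 8 genes passed the limma threshold in either genotype comparison, where 0.0197% of 20273 tested genes were called in undisturbed mice and 0.0145% of 20621 after SD. The genes called, picked here after their values were seen, were Erich5, Gabra2, Nnt and Tmem181b-ps in undisturbed mice and 2610035D17Rik, Bub1b and Dsp after SD. Whether the WT and AcPb-/- mice also differ in strain background was not tested. Such a difference could not be told apart from loss of AcPb in any genotype comparison, those of Lbp included.

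Cd14 was lower after SD in AcPb-/- mice, but not past the threshold within that genotype. It is encoded on chromosome 18 (minus strand, 36725067 to 36726798). The AcPb-/- libraries had 73.1, 86.5 and 73.6 normalized counts in controls and 55.0, 47.8 and 55.3 after SD, without overlap. The WT libraries had 69.6, 80.3 and 81.6 in controls and 68.7, 72.2 and 79.2 after SD, with nearly complete overlap. The log2 fold change was -0.55 in AcPb-/- mice (SE 0.18, 95% interval -0.97 to -0.13, limma adjusted p = 0.0558) and -0.07 in WT mice (95% interval -0.44 to 0.30, limma adjusted p = 0.789). The interaction, tested directly, was -0.48 (95% interval -0.96 to 0.00103, limma adjusted p = 0.986). After SD, Cd14 was lower in AcPb-/- than in WT libraries by a log2 difference of -0.47 (limma adjusted p = 0.738). The AcPb-/- response was past the threshold with edgeR (adjusted p = 0.0464), at a minimum mean of 10 (limma adjusted p = 0.0315), with a pseudocount of 10 (limma adjusted p = 0.0450) and in the joint fit (limma adjusted p = 0.0177), and it fell short of the threshold with the Xist term (-0.44, limma adjusted p = 0.114). Only these 4 of the 14 alternatives passed, and every fit leaving out 1 library fell short (limma adjusted p = 0.0681 to 0.161).

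Cd14 is expressed in the brain mainly by microglia and border macrophages, so the markers of both are given beside it. The summed counts of 10 microglial markers were 17746 to 18488 in CTL-AcPbKO and 12855 to 15665 in SD-AcPbKO, and 17927 to 19350 and 16509 to 17682 in the WT groups. Of these 10 markers, 4 were downregulated after SD in AcPb-/- mice and 2 in WT mice, and 0 were upregulated in either, where 27.4% and 25.4% of all tested genes passed. The 8 border macrophage markers summed to 634 to 932 in CTL-AcPbKO and 874 to 1009 in SD-AcPbKO, with 1 marker upregulated and 0 downregulated. The part of either cell type in the Cd14 values was not tested.

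Over both genotypes together, 4 of the 8 genes passed the threshold (41.5% of 20978 genes did), Cd14 and Ripk2 in addition to Pglyrp1 and Ssc5d. The averaged effect on Cd14 was -0.31 (95% interval -0.55 to -0.07, limma adjusted p = 0.0393). Ripk2, the adaptor kinase that both NOD receptors require for signaling, is encoded on chromosome 4 (minus strand, 16122733 to 16163647). Its normalized counts were 292, 335 and 307 in CTL-WT and 371, 361 and 313 in SD-WT. In AcPb-/- mice they were 322, 254 and 253 in controls and 337, 321 and 341 after SD, so that the groups overlapped in both genotypes by 1 library or more. The averaged effect on Ripk2 was 0.22 (95% interval 0.05 to 0.39, limma adjusted p = 0.0430), i.e., 1.16-fold. Neither call was kept with the Xist term, at -0.20 for Cd14 (limma adjusted p = 0.371) and 0.15 for Ripk2 (limma adjusted p = 0.354). Nor was either kept in the 8 libraries without Xist reads, which include only 1 control per genotype. Both were also lost without CTL-WT 03, SD-WT 01, SD-WT 02, CTL-AcPbKO 04, SD-AcPbKO 02 or SD-AcPbKO 04, each of which left only 2 of the 8 genes past the threshold. Cd14 alone was lost without CTL-WT 02 or SD-AcPbKO 03, and Ripk2 alone without CTL-WT 01 or CTL-AcPbKO 05, with limma adjusted p up to 0.0890 for Cd14 and 0.102 for Ripk2 over all libraries left out. Within AcPb-/- mice Ripk2 changed by 0.28 (limma adjusted p = 0.127), and by 0.39 without CTL-AcPbKO 03, the highest control (limma adjusted p = 0.0303).

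The NOD receptors themselves did not pass the threshold in any comparison. Nod1 (chromosome 6, minus strand, 54923949 to 54972612) had 278, 300.0 and 289 normalized counts in CTL-WT and 312, 264 and 241 in SD-WT. In AcPb-/- mice it had 265, 240.1 and 299 in controls and 216, 295 and 239 after SD. The SD effect over both genotypes was -0.10 with a 95% interval of -0.31 to 0.11, i.e., between 0.809-fold and 1.08-fold. Nod2 (chromosome 8, plus strand, 88647315 to 88688474) had 43.0, 33.8 and 24.6 in CTL-WT and 34.4, 34.9 and 40.0 in SD-WT, and 39.1, 44.1 and 48.1 in CTL-AcPbKO and 34.8, 45.2 and 34.1 in SD-AcPbKO. Its effect over both genotypes was -0.04 with a wider interval of -0.39 to 0.31, at 22 to 69 reads per library. For both receptors the groups overlapped in every comparison.

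Pglyrp2 (chromosome 17, minus strand, 32412459 to 32424167) was detected with 2 reads in the 3 CTL-WT libraries, 8 in SD-WT, 3 in CTL-AcPbKO and 13 in SD-AcPbKO. The SD libraries were sequenced more deeply, and a difference was not detectable at this depth (limma adjusted p = 0.357 in WT and 0.359 in AcPb-/- mice). Its exons were the only ones among the 8 genes to overlap another annotated gene, CT485616.1 on the opposite strand, over 14.4% of their length.

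For the other measurable genes, the interval of the difference between the 2 responses included 0. The interaction was 0.07 for Pglyrp1 (95% interval -0.39 to 0.52), 0.16 for Ssc5d (-0.24 to 0.56), -0.01 for Nod1 (-0.42 to 0.40), -0.34 for Nod2 (-1.04 to 0.36) and 0.12 for Ripk2 (-0.23 to 0.46). These intervals do not show equal responses, since that of Pglyrp1 reaches a 1.44-fold and that of Ssc5d a 1.48-fold difference.

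The calls for other genes of the same pathways are set beside the shares of all tested genes called, 25.4% in WT and 27.4% in AcPb-/- mice. The lists are small, and differences from these shares were not tested. Tested genes with a mean below 20 normalized counts are included, and few reads can keep such genes from being called. In the first list these were Pglyrp3, Pglyrp4, Lyz1, Trem1, Slc15a1, Slc46a2 and Nlrp1a. Parts of the scavenger receptor and acute phase lists below were also this low. Of 20 genes of PG recognition and uptake, 2 were downregulated in WT mice and the same number in AcPb-/- mice, and 0 were upregulated, i.e., a smaller share than over all genes. In both genotypes these were Hspbp1, which encodes a partner of the chaperone HSP70 (log2 -0.65 in WT, limma adjusted p = 0.00264, and -0.75 in AcPb-/- mice, limma adjusted p = 0.000888), and Nagk, the kinase that phosphorylates N-acetylglucosamine and muramyl dipeptide (-0.53 in WT, limma adjusted p = 0.00252, and -0.57 in AcPb-/- mice, limma adjusted p = 0.00194). The median of the list was -0.10 in WT and -0.22 in AcPb-/- mice.

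Downstream of the NOD receptors, 22 of the 23 genes of NOD and RIPK2 signaling were tested. In WT mice 4 were upregulated and 3 downregulated, and in AcPb-/- mice 6 and 2, respectively, beside the backgrounds of 25.4% and 27.4%. The largest changes were those of Rbck1, a subunit of the linear ubiquitin ligase complex (-0.51 in WT and -0.60 in AcPb-/- mice), Ikbkg, the regulatory subunit of the I-kappa-B kinase (-0.43 and -0.45), and Traf3, a ubiquitin ligase and signaling adaptor (0.46 and 0.35). All 3 passed the threshold in both genotypes and with the Xist term. The list medians, -0.0021 and -0.046, were close to those of all genes.

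Among 23 genes of LPS recognition and TLR4 signaling, 3 were upregulated and 5 downregulated in WT mice (background 25.4%), and 2 and 1 in AcPb-/- mice (27.4%). The phospholipid transfer protein gene Pltp, which is related to Lbp, was downregulated in both genotypes (-0.74 in WT, limma adjusted p = 0.000705, and -0.85 in AcPb-/- mice, limma adjusted p = 0.00210). Cd180, a homologue of the LPS receptor, had values of -0.76 in WT (limma adjusted p = 0.00491) and -0.73 in AcPb-/- mice (limma adjusted p = 0.0539), and Tlr4, the LPS receptor itself, had -0.55 (limma adjusted p = 0.0438) and -0.33 (limma adjusted p = 0.279), respectively. The adaptor gene Myd88 was upregulated in both genotypes (0.40 in WT, limma adjusted p = 0.0499, and 0.48 in AcPb-/- mice, limma adjusted p = 0.0213), as was the kinase gene Irak2 (0.37, limma adjusted p = 0.00477, and 0.35, limma adjusted p = 0.0377). Whether the responses of Cd180 or Tlr4 differ between the genotypes cannot be read from these calls.

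In the scavenger receptor cysteine-rich family, to which Ssc5d belongs, 1 of 16 tested genes was upregulated and 2 downregulated in WT mice, and 1 of 14 upregulated and 1 downregulated in AcPb-/- mice, beside the backgrounds of 25.4% and 27.4%. The WT calls were Tmprss5, a serine protease (-1.04 in WT and -0.39 in AcPb-/- mice), Cd6, a lymphocyte receptor (-0.58 and -0.50), and Cd163, the macrophage hemoglobin scavenger receptor (0.45 in both). The AcPb-/- calls were the ferritin receptor Scara5 (0.36 in WT and 1.63 in AcPb-/- mice) and Ssc4d (-0.48 and -0.97), a paralogue of Ssc5d.
Lbp is also an acute phase gene. Of that list, 3 of 13 tested genes were upregulated and 1 downregulated in WT mice, and 2 of 14 and 1 in AcPb-/- mice, beside the same backgrounds. Lcn2, an iron-sequestering protein of innate defense, had the largest WT change (63.9 ± 50.8 normalized counts after SD against 5.80 ± 1.70 in controls, log2 2.93, limma adjusted p = 0.00427), and its value in AcPb-/- mice was 2.89 (limma adjusted p = 0.0717). The transcription factor gene Cebpb, an inducer of acute phase genes in the liver, was downregulated in both genotypes (-1.09 and -1.07), Serpina3n, a protease inhibitor, had values of 0.70 in WT (limma adjusted p = 0.00123) and 0.53 in AcPb-/- mice (limma adjusted p = 0.0573), and the ceruloplasmin gene Cp was upregulated in both (0.39, limma adjusted p = 0.00984, and 0.50, limma adjusted p = 0.0139).
Joint fits are given here only for the 3 largest called changes of each list in each genotype. The WT calls of Myd88, Irak2 and Cp are not among them. Of the calls that are, those of 5 genes passed the threshold in the joint fit of the 12 libraries but not when the Xist term was added to it. In WT mice the value of Tlr4 was -0.55 without and -0.46 with the term (limma adjusted p = 0.0462 and 0.181), that of Cd6 -0.58 and -0.39 (0.0272 and 0.190), that of Lcn2 2.92 and 2.88 (0.0436 and 0.118) and that of Serpina3n 0.70 and 0.56 (0.00674 and 0.0513). In AcPb-/- mice that of Irak2 was 0.35 without and 0.33 with the term (limma adjusted p = 0.0113 and 0.0522). The values of Lcn2 and Irak2 thus moved little. The reverse held for Tmprss5 and Cd163 in WT mice, which did not pass in the joint fit (limma adjusted p = 0.107 and 0.229) and passed with the term (0.0376 and 0.0121).

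**Figure D4:**
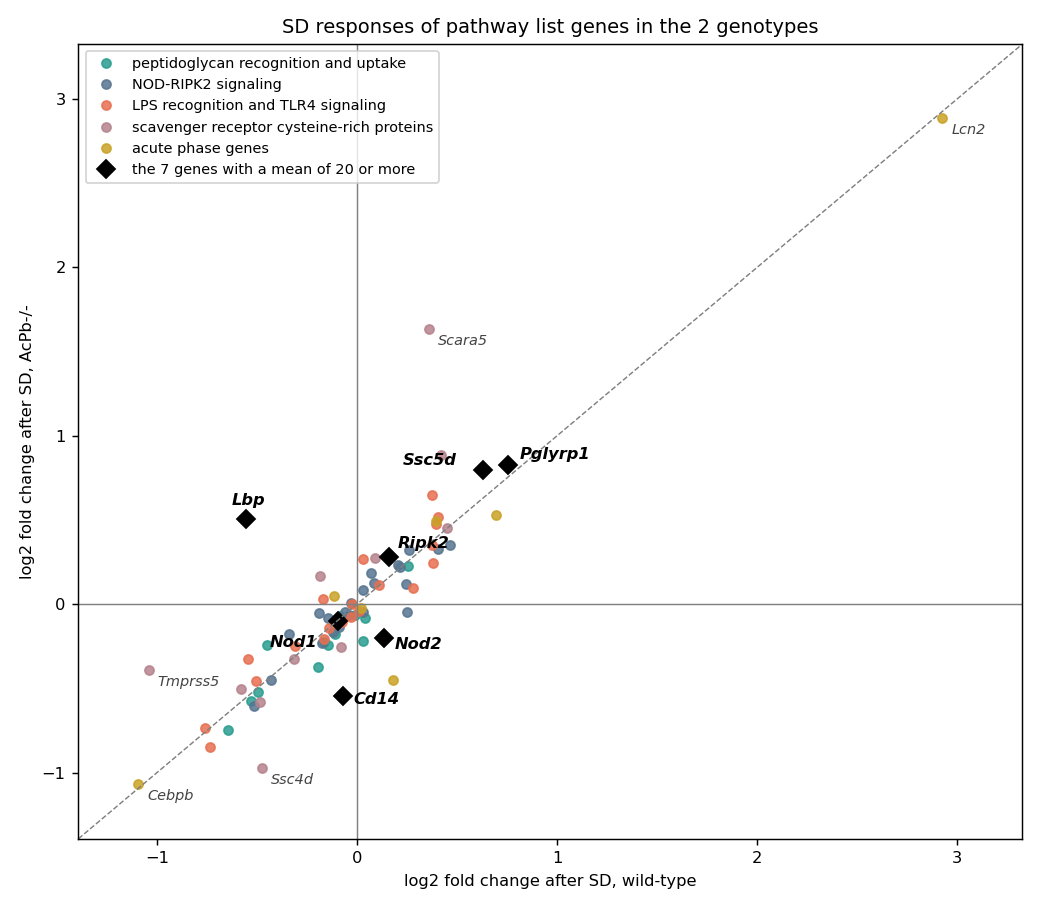
log2 fold change after SD in WT (horizontal axis) and AcPb-/- mice (vertical axis) for 73 genes of the 5 pathway lists (circles, colored by list) and the 7 described genes (diamonds) with a mean of at least 20 normalized counts, with the line of equal change dashed. Of the 73 genes, 13 passed the threshold in both genotypes (7 higher and 6 lower in both), 11 in WT only, 4 in AcPb-/- only and 45 in neither. No matching share over all genes is given, so these counts describe the plotted genes only. Lbp lies in the upper left at -0.55 and 0.50, away from the dashed line.

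The genes whose profiles over the 12 libraries were most like those of the described genes differed in how closely they followed them. Correlations of log2 normalized counts were computed against 14294 genes with a mean of at least 20, and they share depth and condition as sources of variation, so they are given as descriptions. Pglyrp1 was followed most closely by Mrpl46, a mitochondrial ribosomal protein gene (Pearson r = 0.970), the endothelial surface antigen gene Ly6c1 (r = 0.955) and the respiratory chain gene Uqcrh (r = 0.954), and after subtracting the group means these values were 0.781, 0.634 and 0.528. Ssc5d was followed by Ppil2 (r = 0.982), Aff1 (r = 0.973) and Tubd1 (r = 0.972). Lbp had no match of that closeness, with r = 0.810 for the potassium channel gene Kcnj5, 0.801 for Kif24 and 0.800 for Plk4. Cd14 was followed by Tmem173, which encodes the cytosolic DNA signaling adaptor STING (r = 0.948), Coq7 (r = 0.910) and Rrp12 (r = 0.909). Ripk2 was followed by Zfp85os (r = 0.928) and Tbce (r = 0.908), Nod1 by Tgfbr2 (r = 0.854), Suv420h2 (r = 0.850) and Nodal (r = 0.848), and Nod2 by Nans (r = 0.862), Cklf (r = 0.843) and Slc35d2 (r = 0.829).
Among the described genes themselves, the highest correlation was that of Pglyrp1 with Ssc5d (r = 0.811), which was -0.19 after the group means were subtracted. Lbp and Cd14 had r = -0.60 over the 12 libraries and -0.39 after subtraction.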

How the data were processed

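Somatosensory cortex RNA was made into stranded mRNA libraries (TruSeq), aligned by the authors to mm10 with HISAT2 2.2.1 per the labels, and counted per gene (HTSeq in the study's methods, featureCounts in the submitters' processing notes). The deposited values are normalized read counts, i.e., a signal of gene counts divided by DESeq2 size factors (DESeq2 1.31.16), in 5 tables of 2 groups each that also hold the authors' fold changes and p-values, which were not used. Whole reads were recovered for 100% of the 732630 values, to within 0.01 reads, and the 12 libraries were renormalized together for values per library and joint fits. Depth was 26504840 to 71857505 reads, and precision is limited by 3 libraries per group.

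Tests were limma 3.58.1 with a variance trend on log2(normalized count + 1), on which scale all fold changes are given and which understates changes of low genes, for genes with a read in the comparison, with Benjamini-Hochberg adjustment. DESeq2 1.42.0 and edgeR 4.0.16 on recovered reads, a mean of at least 10, a pseudocount of 10, thinning to the smallest total, joint fits with and without an Xist term, a replicate block and leaving out each library were the alternatives. The limma, edgeR and DESeq2 fits were tested on simulated data. Exon positions came from GENCODE M21 (GRCm38). The genes, lists and tests were chosen with earlier results of these data known. Named were the 8 genes, the label checks, the 3 largest called changes per list with a mean of at least 20, and the 3 most correlated genes, of which 1 is not reported here.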

Additional observations from a re-analysis of the deposited data

Results flagged for a closer look

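In Lbp every SD library lay below every control in WT mice and above every control in AcPb-/- mice. The difference of the log2 fold changes, AcPb-/- minus WT, was 1.05, with a limma adjusted p = 0.986. The gene was singled out with earlier results of these data known, and neither response within a genotype passed the threshold (limma adjusted p = 0.0550 in WT and 0.0630 in AcPb-/- mice). Groups of 3 libraries are too small for a test of single deviating libraries.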

How the results depend on the processing

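Pglyrp1 and Ssc5d kept their direction in all alternatives of the 3 SD comparisons, and their calls in all but the replicate block within a genotype. The Lbp interaction kept its direction and stayed short of the adjusted threshold in all 19 alternatives (0.93 to 1.22 on the log2 scale, limma, edgeR or DESeq2 adjusted p 0.488 to 0.99999). Depth limits Pglyrp2 most, and Lbp, Cd14 and Nod2 rest on 22 to 202 reads per library. Unless a value below shows it, the cause of a change was not tested.

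Deviations from group means had correlations of -0.43 to 0.23 for samples with the same replicate number and -0.41 to 0.48 for samples with different numbers. These values do not decide whether the numbers pair the samples. The genotypes share only 1 number in undisturbed mice, where no fit by replicate number was made. With a replicate block, 0 genes and 0 of the 8 passed the threshold with limma in WT mice (6889 genes at an unadjusted p under 0.05) and in AcPb-/- mice (4662), as did 0 genes in the genotype comparison after SD (2316), which leaves few residual degrees of freedom, while 7752 genes passed over both genotypes. Under the block Nod2 in WT mice was -0.14, Nod1 in AcPb-/- mice 0.077 and Lbp over both genotypes 0.0058, each opposite in sign to the reported value.

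Of the 8 genes, 4 passed the threshold in AcPb-/- mice at a minimum mean of 10, where Pglyrp2 was not tested and 5992 of 16074 genes passed. Over both genotypes 2 of the 8 passed after thinning (8046 of 20585 genes), with the Xist term (6451 of 20978) or in libraries without Xist reads (5910 of 20768). Genes called between undisturbed genotypes numbered 104 with DESeq2, 8 with edgeR, 0 with a pseudocount of 10, 0 after thinning, 8 in the joint fit and 7 with the Xist term. After SD they numbered 99 with DESeq2, 9 with edgeR, 5 in the joint fit and 13 with the Xist term. DESeq2 called 1 gene (Polr2k, named after its value was seen) for the interaction.

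Leaving out 1 library at a time gave 2699 to 6222 genes in WT mice, 3393 to 5412 in AcPb-/- mice, 0 to 168 between undisturbed genotypes (168 without CTL-AcPbKO 03), 0 to 4 after SD and 0 to 9 for the interaction (9 without CTL-AcPbKO 03). Over both genotypes it gave 2 to 4 of the 8 genes, beside 7712 to 8786 of all tested genes.

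Values near 0 changed sign. Nod1 in WT mice was 0.019 after thinning and Cd14 in WT mice 0.043 with the Xist term. Between undisturbed genotypes Cd14 was -0.00014 with edgeR and -0.014 after thinning, and Ssc5d 0.00092 after thinning, and Nod2 over both genotypes was 0.041 after thinning. With single libraries left out, Nod2 ranged from -0.069 to 0.32 in WT mice and from -0.14 to 0.058 over both genotypes, Lbp over both genotypes from -0.11 to 0.034, Cd14 from -0.069 to 0.049 and Ssc5d from -0.14 to 0.0088 between undisturbed genotypes, Ssc5d after SD from -0.0068 to 0.22, and the Pglyrp1 interaction from -0.080 to 0.25. All of these sign changes concern differences that did not pass the threshold.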
